A study of Caenorhabditis elegans with 20 samples.

Results

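Metallothioneins and metal response genes are described here as 5 genes of *Caenorhabditis elegans*, *mtl-1*, *mtl-2*, *cdr-1*, *hmt-1* and *ttm-1*. Their probesets were those that the annotation of the Affymetrix GeneChip gives to 1 of these genes alone. This gave 9 probesets of the 20563 tested, and 5 genes of the 16669 that have a probeset of their own. *mtl-1* (172744_at), *cdr-1* (191611_at) and *hmt-1* (193490_s_at) had 1 probeset each, while *mtl-2* (188487_s_at, 194150_x_at and 194151_x_at) and *ttm-1* (171887_x_at, 186316_s_at and 194201_x_at) had 3 each. The endings _s_at and _x_at mark probes that can also match other transcripts, so the values of *mtl-2*, *hmt-1* and *ttm-1* may include signal from near-identical sequences.

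The study asked how *C. elegans* responds to ivermectin (IVM), an anthelmintic drug that opens glutamate-gated chloride channels. RNA of whole worms was measured on 20 arrays from 2 experiments. In one, 5 arrays held worms after 4 hr on plates with IVM at 1 µg/ml in 0.01% DMSO (v/v), and 5 held their controls on 0.01% DMSO alone. In the other, 5 arrays held worms after 4 hr with 100 ng/ml IVM and 0.001% DMSO, against 5 controls on 0.001% DMSO alone. All 4 groups were strain DA1316, with the alleles *avr-14(ad1302)* and *glc-1(pk54)* and a mutation of *avr-15*, given as ad1250 in the sample labels and as vu227 in the methods. The strain resists paralysis of the body wall by IVM, while its pharynx, the feeding organ, is still slowed by the drug at these doses, and no array held worms with intact channels. The worms were grown for 53 hr from the L1 larva on OP50 bacteria, and are called adult in some labels and L4 in others. The description text of all 20 samples names another share of DMSO, and on 7 arrays, all of the 100 ng/ml experiment, it names ABZ. This goes against all other labels, and the text was not used. Worms of 1 suspension went to both kinds of plate. An IVM array and a control array with the same replicate number in an experiment were therefore taken as a pair, which the labels do not state outright.

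Metallothioneins are small cysteine-rich proteins that bind zinc, copper and cadmium. *C. elegans* has a pair of them, *mtl-1* and *mtl-2*, both induced by cadmium and heat in cells of the intestine, and *mtl-1* is also active in the pharynx without induction and is a known target of the transcription factor DAF-16. *cdr-1* encodes a cadmium-responsive lysosomal membrane protein of the intestine. *hmt-1* encodes an ABC transporter needed for tolerance of heavy metals, and *ttm-1* encodes a zinc transporter of the cation diffusion facilitator family.

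The only sequences at hand for these genes were the primers that the study designed to measure *mtl-1*, on chromosome V, by RT-QPCR, shown here because *mtl-1* carries the main result. They are written 5′ to 3′ with TGC and TGT in capitals, the triplets that encode cysteine when they stand in frame on the coding strand, and the frame was not determined here.
mtl-1 forward primer: ctTGCaagTGTgacTGCaaaaac
mtl-1 reverse primer: ctTGCagtctcccttacatcc
The forward primer of 23 bases held 3 such triplets. The reverse primer of 21 bases held 1 TGC, but it is written on the opposite strand. That TGC reads GCA on the coding strand. The reverse complement of this primer, which is the coding strand, holds a TGT and a TGC, and this TGC overlaps the GCA. The capitals in the reverse primer thus do not mark the possible cysteine triplets of its site. No RT-QPCR values were used, and all levels below are log2 probeset intensities from the arrays, which say nothing of how 1 gene compares with another.

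Before the results, 2 pairs stood apart from the others. In the 1 µg/ml experiment the pair of replicate 2 went against the label adult in its markers. The yolk gene *vit-2* was at 4.36 with IVM and 5.18 in the control, against 9.54 to 11.5 in the other 18 arrays, and the adult cuticle collagen *col-19* was at 6.54 and 7.13, against 11.4 to 12.1. The larval cuticle collagen *dpy-7* was at 9.84 and 11.2 in this pair and at 7.57 to 9.04 elsewhere. In the 100 ng/ml experiment the pair of replicate 4 ran against the others. Among 715 probesets with an adjusted p under 0.05 at the higher dose (limma, Benjamini-Hochberg adjustment over all probesets), 7.41% differed in the same direction in this pair, against 80.1% to 95.2% in the other 4 pairs of that experiment. Values without these pairs are given beside the results that they move most. Replicate 4 was set apart by the direction of its differences over probesets that include *mtl-1*. Values and calls without it follow in part from that choice and are a description.

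The 5 genes did not move together. With 1 µg/ml IVM, *mtl-1* was 31.8-fold higher than in controls and had the largest difference of all 20563 probesets, *hmt-1* was lower in 5 of 5 pairs by a mean of 0.62 on the log2 scale, and *mtl-2*, *cdr-1* and *ttm-1* differed by 0.30 or less. Since the genes were chosen with both IVM contrasts known, these differences are a description and carry no p. The same holds for the counts of calls that follow, which are no test of these genes. Of the 9 probesets, 1, that of *mtl-1*, was among those called higher at 1 µg/ml and 0 among those called lower, at an adjusted p under 0.05 from limma. Of all probesets, 2.11% were called higher and 1.37% lower. At 100 ng/ml 0 of the 9 were called, beside 0% of all probesets in either direction, where limma gave 895 an unadjusted p under 0.05 and the smallest adjusted p was 0.936. Without replicate 4, 0.977% of all probesets were called higher and 0.545% lower at that dose. Of the 9, that of *mtl-1* was again the only one called, as higher. Its difference in replicate 4 ran the other way, so leaving that pair out favours this call.

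**Figure D1:**
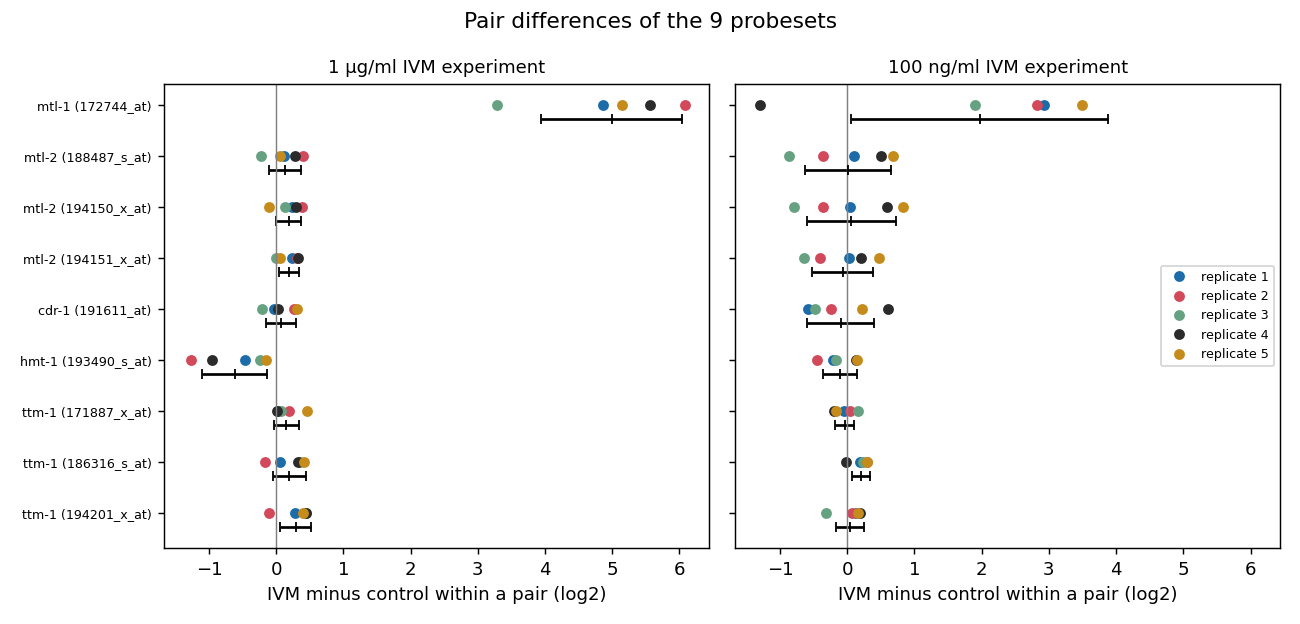
Difference of log2 intensity, IVM minus control, within each pair (horizontal axis) for the 9 probesets (rows), at 1 µg/ml (left) and 100 ng/ml (right), with points coloured by replicate and bars for the mean ± SD of 5 pairs. *mtl-1* lies at 3.29 to 6.08 at 1 µg/ml and at -1.298 to 3.50 at 100 ng/ml, and *hmt-1* lies below 0 in every pair at 1 µg/ml.

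*mtl-1* with 1 µg/ml IVM had log2 intensities of 8.25, 9.51, 9.99, 10.64 and 8.42 in replicates 1 to 5, against 3.38, 3.43, 6.70, 5.08 and 3.27 in the controls with the same numbers. The lowest IVM array lay above the highest control array, so the groups did not overlap, as for 0.987% of all probesets in this direction. The mean was 9.36 ± 1.02 with IVM and 4.37 ± 1.50 in controls (SD, n = 5 arrays each). The pairs differed by 3.29 to 6.08, with a mean of 4.99 ± 1.06 (SD, n = 5 pairs) and an SE of 0.33 from limma. The smallest difference was that of replicate 3, which had the highest control, and the largest was that of replicate 2. Without replicate 2, the pair with low adult markers, the mean difference was 4.72 (SD 1.00, n = 4 pairs), or 26.3-fold.

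The place of *mtl-1* within each array shows where these levels lie on the scale. Its probeset was above 82.9% to 96.6% of all probesets on the IVM arrays of the 1 µg/ml experiment, and above 1.83% to 67.6% of them on the controls, with a median of 5.67%. In most controls it thus stood near the low end of the scale, where RMA (robust multi-array average) values are known to be compressed, so the fold is that of the fitted intensities. No background level or detection call was used here, and whether these control values exceed background was not tested. In RNA of whole worms, more expression per cell and more expressing cells cannot be told apart.

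**Figure D2:**
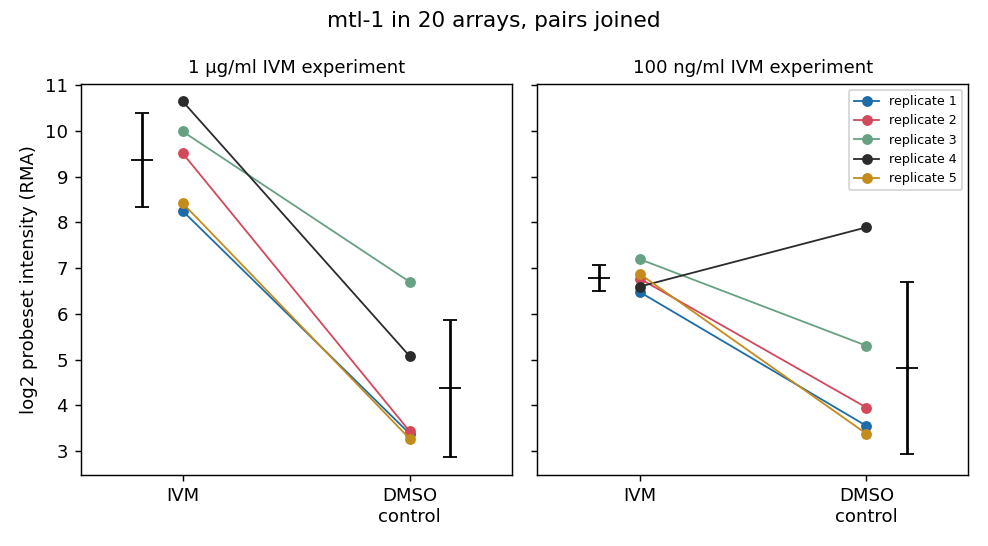
Log2 intensity of *mtl-1* (vertical axis) on IVM and control arrays at 1 µg/ml (left) and 100 ng/ml (right), with lines that join the arrays of a replicate and bars for the mean ± SD of 5 arrays. IVM arrays lie at 8.25 to 10.64 at 1 µg/ml and at 6.48 to 7.196 at 100 ng/ml, and the control of replicate 4 at 100 ng/ml lies above its IVM array.

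With 100 ng/ml IVM, *mtl-1* was at 6.48, 6.77, 7.196, 6.59 and 6.88 in replicates 1 to 5, against 3.55, 3.95, 5.30, 7.89 and 3.38 in the controls. The IVM arrays lay within 0.72 of each other, while the controls spread over 4.52. The control of replicate 4 was the highest of all 10 controls in the series and lay above every IVM array of its own experiment, so the groups overlapped. At this dose 0 of the 9 probesets had groups that did not overlap, beside 0.0729% of all probesets in the higher and 0.0827% in the lower direction. The mean was 6.78 ± 0.28 with IVM and 4.81 ± 1.88 in controls (SD, n = 5 arrays each), and the pairs differed by 1.97 ± 1.91 (SD, n = 5 pairs; SE 0.57), or 3.92-fold. *mtl-1* was higher in 4 of 5 pairs, with -1.298 in replicate 4, so leaving out that pair raises the mean by construction. Without that replicate the difference was 2.79 ± 0.66 (SD, n = 4 pairs; SE 0.21), or 6.90-fold, with 6.48 to 7.196 on IVM arrays and 3.38 to 5.30 on controls, which did not overlap, as for 1.29% of all probesets in this direction and 1.17% in the other. In replicate 4 the IVM array, at 6.59, lay among the other IVM arrays, and the control, at 7.89, lay above the other controls.

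Across the 4 groups the levels of *mtl-1* followed the order 9.36 with 1 µg/ml IVM, 6.78 with 100 ng/ml IVM, 4.81 in the controls of the 100 ng/ml experiment and 4.37 in those of the 1 µg/ml experiment. Its IVM arrays lay at 8.25 to 10.64 at 1 µg/ml and at 6.48 to 7.196 at 100 ng/ml. Dose and experiment changed together and cannot be told apart, and the share of all probesets that separate likewise was not counted. The control groups overlapped, and so did the 100 ng/ml IVM arrays and their controls. The median difference over all probesets was -0.01 at 1 µg/ml and 0.01 at 100 ng/ml, a value near 0 that RMA fixes by giving all arrays like distributions, so a general shift could not be seen.

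Levels of intestine and pharynx genes are given beside *mtl-1*, since it is active in both organs. The mean of 4 intestine markers (*ges-1*, *elt-2*, *vha-6* and *asp-1*) was 8.79 to 10.0 with 1 µg/ml IVM and 8.65 to 9.78 in controls, and 9.08 to 9.78 with 100 ng/ml and 8.87 to 9.75 in controls. At 1 µg/ml 1 of the 4 rose, the gut esterase gene *ges-1*, by 0.91 (limma, adjusted p = 0.0024), and 0 fell. Of all probesets, 2.11% were called higher and 1.37% lower. At 100 ng/ml *ges-1* differed by 0.34 (limma, adjusted p = 0.936), and without replicate 4 by 0.59 (adjusted p = 0.0220). The study lists *ges-1*, too, among targets of DAF-16. The mean of 3 pharynx markers (*myo-1*, *myo-2* and *tnc-2*) was 7.38 to 8.39 with 1 µg/ml and 7.04 to 7.93 in controls, with 0 of 3 past the test and 0.0536 as the smallest adjusted p. The part of these tissues in the level of *mtl-1* was not tested.

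*mtl-2*, the other metallothionein, showed no such difference between IVM and control arrays. Its probeset with the highest mean, 194151_x_at, was at 11.10, 11.23, 12.12, 12.31 and 12.12 with 1 µg/ml IVM, against 10.85, 10.93, 12.13, 11.98 and 12.06 in the controls. Replicates 1 and 2 were low and replicates 3 to 5 high on both arrays of the pair, so suspensions differed by more than the plates of 1 suspension. Within pairs the difference was 0.19 ± 0.15 (SD, n = 5 pairs), or 1.14-fold, while the controls had an SD of 0.64. With 100 ng/ml the arrays gave 11.32, 11.04, 11.58, 11.83 and 11.67 with IVM, against 11.30, 11.45, 12.22, 11.62 and 11.19 in controls, a difference of -0.07 ± 0.45 (SD, n = 5 pairs), or -0.14 without replicate 4. Here 3 pairs were higher and 2 lower, and the groups overlapped at both doses.

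The other 2 probesets of *mtl-2*, 188487_s_at and 194150_x_at, differed by 0.13 and 0.19 at 1 µg/ml, and by 0.06 and 0.14 without replicate 2. The lower dose gave 0.01 and 0.06, and by -0.11 and -0.07 without replicate 4, so the sign turned with that pair. The 3 probesets had Pearson r of 0.95 to 0.98 with each other over the 20 arrays. All 3 lay near the upper end of the intensity scale, above at least 96.2% of the probesets of each array, which is a property of these probes as well as of the gene. *mtl-1* and *mtl-2*, by 194151_x_at, had r of 0.38 over 20 arrays and of 0.33 between their differences over 10 pairs. Both values are a description, because arrays of a pair share their worms.

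*cdr-1*, the cadmium-responsive gene of the list, showed no shared direction. With 1 µg/ml IVM it was at 5.68, 5.76, 5.75, 5.87 and 5.98, against 5.71, 5.50, 5.97, 5.85 and 5.66 in controls. The mean difference of 0.07 was smaller than its SD of 0.22 over 5 pairs, with 3 pairs higher and 2 lower, and it was 0.02 without replicate 2. With 100 ng/ml it was at 5.71, 5.29, 5.62, 5.996 and 5.98, against 6.29, 5.53, 6.10, 5.39 and 5.76 in controls, with a difference of -0.09 ± 0.50 (SD, n = 5 pairs). Without replicate 4, whose pair differed by 0.61, it was -0.27 ± 0.36 (SD, n = 4 pairs). Its probeset stayed near the middle of each array, above 43.0% to 60.9% of all probesets.

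*hmt-1*, the transporter for metal tolerance, was the only member lower with 1 µg/ml IVM in every pair. It was at 6.38, 6.21, 6.22, 5.81 and 5.91 with IVM, against 6.85, 7.48, 6.46, 6.77 and 6.06 in controls. The groups overlapped, because the control of replicate 5 was lower than 3 of the IVM arrays. The mean was 6.11 ± 0.24 with IVM and 6.72 ± 0.53 in controls (SD, n = 5 arrays each). The pairs differed by -1.27 to -0.15, with a mean of -0.62 ± 0.48 (SD, n = 5 pairs; SE 0.16), or 1.53-fold higher in controls, and 1.13% of all probesets had a lower mean difference. The largest difference was that of replicate 2, and without it the mean was -0.45 ± 0.36 (SD, n = 4 pairs), or 1.37-fold higher in controls.

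With 100 ng/ml IVM *hmt-1* was at 6.03, 7.28, 7.29, 7.75 and 6.43, against 6.24, 7.73, 7.47, 7.61 and 6.28 in controls. Replicates 1 and 5 were low and replicates 2 to 4 high on both plates, and the pairs differed by only -0.11 ± 0.25 (SD, n = 5 pairs). Without replicate 4 the difference was -0.17 ± 0.25 (SD, n = 4 pairs). The level of *hmt-1* thus varied between worm suspensions by more than 1 log2 unit, as its range of 1.72 over IVM arrays and 1.49 over controls shows.

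*ttm-1*, the zinc transporter, was measured by probesets that did not agree. Probeset 186316_s_at, with the highest mean, was at 8.04, 8.0, 7.70, 7.47 and 7.27 with 1 µg/ml IVM, against 7.97, 8.16, 7.35, 7.14 and 6.86 in controls, a difference of 0.20 ± 0.24 (SD, n = 5 pairs). It was higher in 4 of 5 pairs, with -0.16 in replicate 2, and without that pair the difference was 0.29 ± 0.15 (SD, n = 4 pairs). With 100 ng/ml it was at 7.61, 8.01, 8.02, 7.51 and 7.51, against 7.43, 7.71, 7.78, 7.54 and 7.21 in controls, a difference of 0.20 ± 0.13 (SD, n = 5 pairs). In this probeset replicate 4 was at -0.02, against 0.19 to 0.30 in the other 4 pairs.

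The second probeset of *ttm-1*, 194201_x_at, had r of 0.92 with the first over 20 arrays and differed by 0.29 at 1 µg/ml and 0.05 at 100 ng/ml. In it, too, replicate 2 at 1 µg/ml was the only pair below 0, and without that pair the difference was 0.39 ± 0.08 (SD, n = 4 pairs). Its pairs at 100 ng/ml ranked otherwise than in the first, with replicate 4 the highest at 0.19 and replicate 3 the only one below 0, at -0.31. The third, 171887_x_at, had r of -0.26 and -0.19 with the other two and differed by 0.15 and -0.04. At 1 µg/ml all 3 probesets had a mean above 0, the pair of replicate 5 being the largest for 2 of them, but at 100 ng/ml only the first had a difference larger than its SD. The groups overlapped for each probeset and dose.

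**Figure D3:**
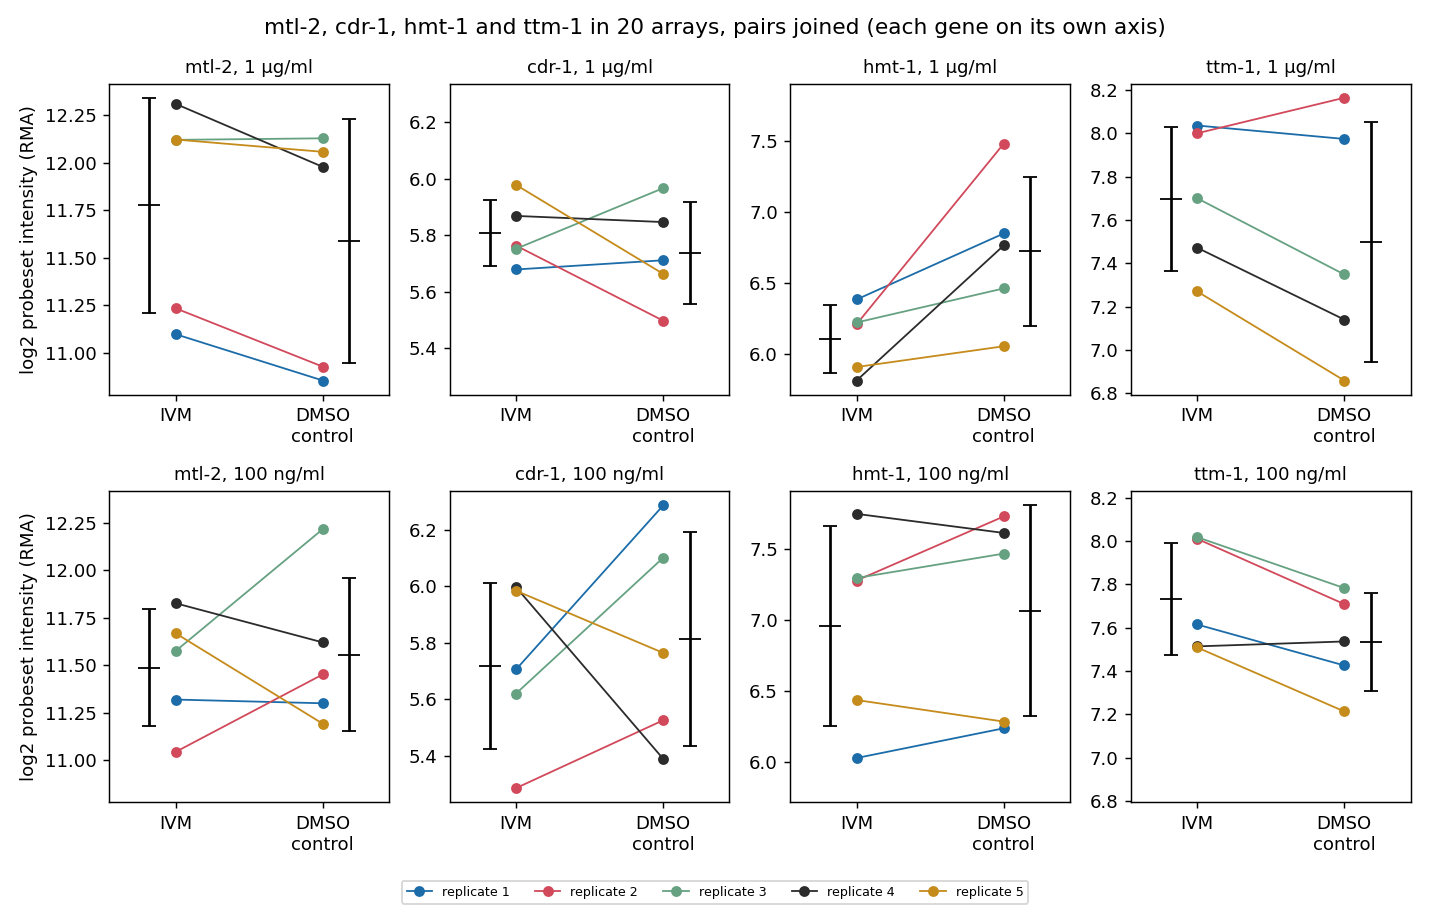
Log2 intensity (vertical axes, 1 scale a gene) of *mtl-2*, *cdr-1*, *hmt-1* and *ttm-1*, by the probeset with the highest mean, on IVM and control arrays at 1 µg/ml (top) and 100 ng/ml (bottom), with lines that join the arrays of a replicate and bars for the mean ± SD of 5 arrays. Lines of *hmt-1* at 1 µg/ml all run lower on the IVM side, whereas *mtl-2* at that dose differs more between replicates than within pairs.

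The controls were also compared with each other, with no IVM array entered. The genes were chosen with levels in all 4 groups known, controls included. The adjusted p of members given here are therefore a description and no independent test. Controls of the 1 µg/ml experiment were set against those of the 100 ng/ml experiment, which differ in the share of DMSO and in the experiment itself, and these cannot be told apart. None of the 9 probesets passed in limma. *mtl-1* was at 4.37 ± 1.50 and 4.81 ± 1.88 (SD, n = 5 arrays each), a difference of -0.44 (SE 0.95, adjusted p = 0.879), and leaving out 1 control at a time gave -1.02 to 0.33. *hmt-1* differed by -0.34 (SE 0.36, adjusted p = 0.737), and the other 7 probesets had adjusted p of 0.816 to 0.976. Of all 20563 probesets, 0% were called in either direction, with 2249 at an unadjusted p under 0.05 and a smallest adjusted p of 0.415. With an SE near 1 for *mtl-1*, only a large difference between its control groups could have been seen.

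Other genes of metal handling were taken as a list of 55, of which 48 had a probeset of their own. They are cadmium-responsive genes, genes of chelation and tolerance, transporters and stores of zinc, iron, manganese and copper, and regulators. At 1 µg/ml 2 of 48 rose and 2 fell (limma, adjusted p under 0.05 over all probesets), beside the 2.11% and 1.37% given above, and the list was not tested as a set. Its median difference was -0.02, against -0.01 over all probesets. By role, 0 of 5 cadmium-responsive genes, 0 of 5 genes of chelation and tolerance and 0 of 9 regulators passed, while 1 of 18 zinc transport genes and 1 of 11 genes of iron, manganese and copper rose and 1 of each fell. At 100 ng/ml 0 of 48 passed, with or without replicate 4, and the median was -0.001 against 0.006 over all probesets.

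The 2 genes that rose belong to families of metal importers. *zipt-2.1*, of the ZIP family of zinc transporters, was at 8.19, 8.67, 7.37, 7.42 and 6.78 with 1 µg/ml IVM, against 7.55, 8.35, 7.07, 6.72 and 6.20 in controls. The arrays overlapped widely, yet each pair was higher by 0.30 to 0.70, with a mean of 0.51 (SE 0.09, adjusted p = 0.0206). *smf-3*, an intestinal transporter of manganese and iron, was at 4.98, 5.01, 4.95, 4.66 and 4.50 with IVM, against 4.39, 4.38, 4.14, 4.16 and 4.31 in controls. The mean difference was 0.54 (SE 0.10, adjusted p = 0.0233), and it was the only gene of the 48 whose groups did not overlap at this dose, beside 0.987% of all probesets in the higher and 0.608% in the lower direction. With 100 ng/ml *zipt-2.1* differed by 0.16 and *smf-3* by 0.13 (adjusted p = 0.936 each), both higher in 4 of 5 pairs and lower in replicate 4, and without that pair by 0.25 (adjusted p = 0.289) and 0.22 (adjusted p = 0.382).

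The 2 genes that fell were a metal store and another ZIP transporter. *ftn-2*, a ferritin that stores iron, was at 10.98, 11.32, 11.08, 11.21 and 11.83 with 1 µg/ml IVM, against 11.71, 12.04, 11.92, 11.78 and 12.11 in controls. It was lower in 5 of 5 pairs by a mean of 0.63 (log2 difference -0.63, SE 0.10, adjusted p = 0.0119), and its second probeset gave -0.64 (SE 0.12, adjusted p = 0.0290). *zipt-15* was at 5.46, 5.95, 6.15, 5.96 and 6.27 with IVM, against 5.80, 6.26, 6.42, 6.49 and 6.63 in controls, a difference of -0.36 (SE 0.08, adjusted p = 0.0398). Its second probeset did not pass (-0.14, SE 0.09, adjusted p = 0.558). At 100 ng/ml *ftn-2* differed by -0.24 over 5 pairs and by -0.43 (SE 0.10, adjusted p = 0.0683) without replicate 4, in which it was 0.53 higher with IVM.

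These 4 calls were narrow. Without replicate 1, and likewise without replicate 4, none of the 4 passed, with adjusted p of 0.0562 to 0.163, and without the pairing they had 0.141 to 1.000. Without replicate 2, *zipt-2.1* and *ftn-2* passed (adjusted p = 0.0242 and 0.0270) and *smf-3* and *zipt-15* did not (0.0541 and 0.0792). *zipt-15* passed in none of the 5 such fits (0.0542 without replicate 3 and 0.0906 without replicate 5) nor with robust eBayes and a trend (0.0725), and *zipt-2.1* also failed without replicate 5 (0.0637). The difference between doses did not pass for any of the 48, beside 0.00486% of all probesets called higher and 0% lower, and for these 4 its adjusted p was 0.698 to 0.756. A pair of further genes, chosen after their values were seen, came near the threshold at 1 µg/ml, the copper chaperone *cuc-1* (-0.67, SE 0.16, adjusted p = 0.0614) and *cdr-4*, of the same family as *cdr-1* (-0.55, SE 0.14, adjusted p = 0.0749).

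**Figure D4:**
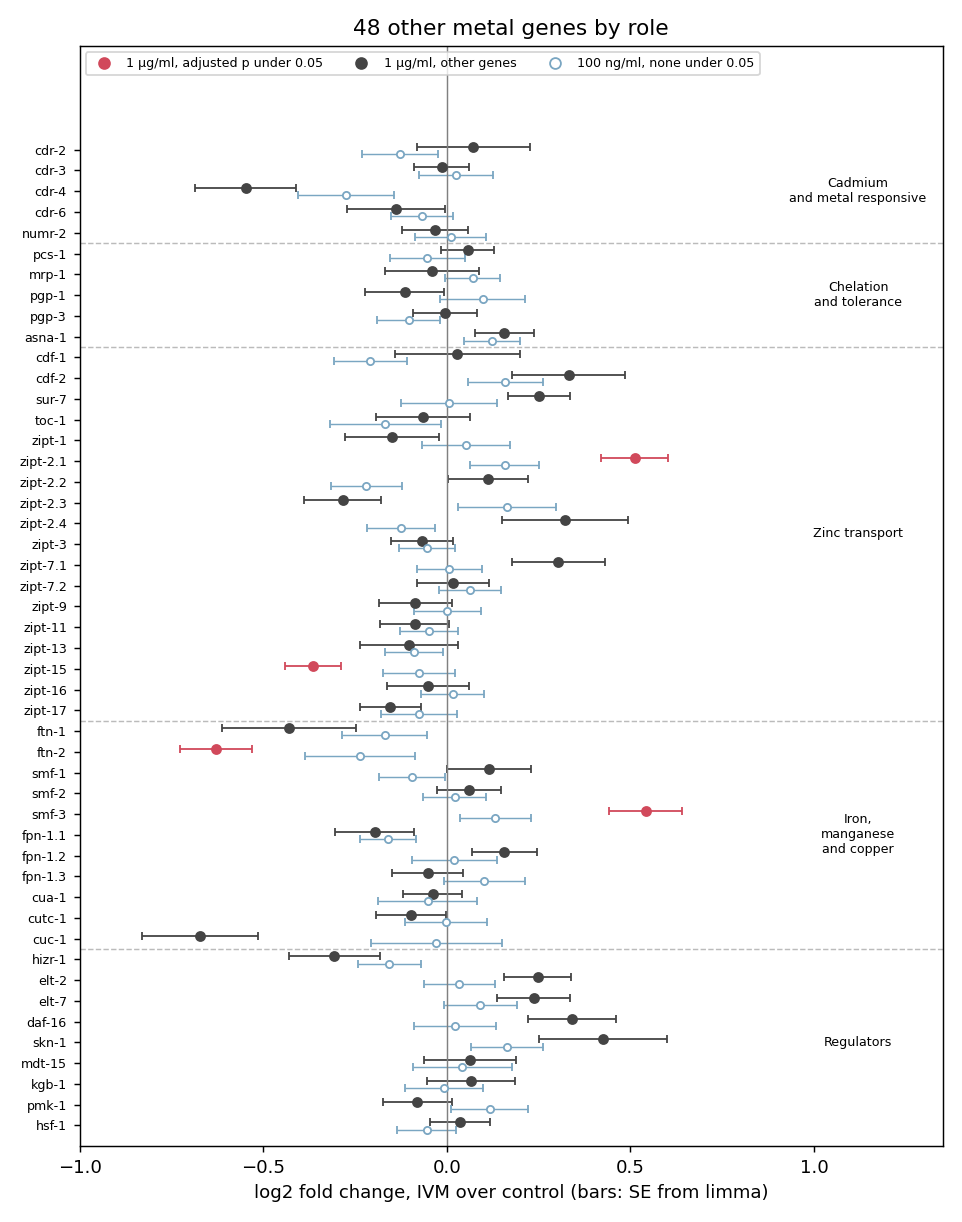
Log2 fold change, IVM over control (horizontal axis), of 48 other metal genes grouped by role (rows), with bars for the SE from limma, filled points for 1 µg/ml and open points for 100 ng/ml. The 4 genes past the threshold at 1 µg/ml are red, *zipt-2.1* and *smf-3* to the right and *zipt-15* and *ftn-2* to the left, all within 0.63 of 0, where *mtl-1* had 4.99.

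The probesets whose levels followed those of each gene most closely were found by Pearson r over the 20 arrays, which share pairs and doses, so r is a description. For *mtl-1* they were *scl-2*, of a family of secreted cysteine-rich proteins (r = 0.841), the cytochrome P450 gene *cyp-37B1* (0.841), F43C11.7 (0.839) and F15E6.3, by its 2 probesets (0.826 and 0.817). In the 1 µg/ml experiment *scl-2* was at 10.9 to 11.7 with IVM and at 7.88 to 8.42 in controls, and *cyp-37B1* at 6.53 to 8.37 with IVM and at 4.51 to 4.99 in controls. Over the 10 controls alone the closest were others, *pigo-1* (0.898), F10G7.9 (0.862), *mat-3* (0.861), *lea-1* (0.849) and *asp-17* (0.847), whose differences at 1 µg/ml lay between -0.27 and 0.42.

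Replicate 4 at 100 ng/ml set *mtl-1* apart from *scl-2* and *cyp-37B1*. In that pair *scl-2* was at 7.34 with IVM and 9.80 in the control, while the other 4 pairs had 10.1 to 10.5 with IVM and 7.65 to 8.69 in controls. *cyp-37B1* was at 4.59 with IVM and 6.60 in the control, against 6.79 to 7.35 with IVM and 4.59 to 5.40 in controls in the other pairs. Both genes thus lay near or below the other controls on the IVM array and near the other IVM arrays on the control, whereas *mtl-1* was at 6.59 and 7.89, high on both. Whether these arrays carry the right labels was not tested, and they were kept as labelled.

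**Figure D5:**
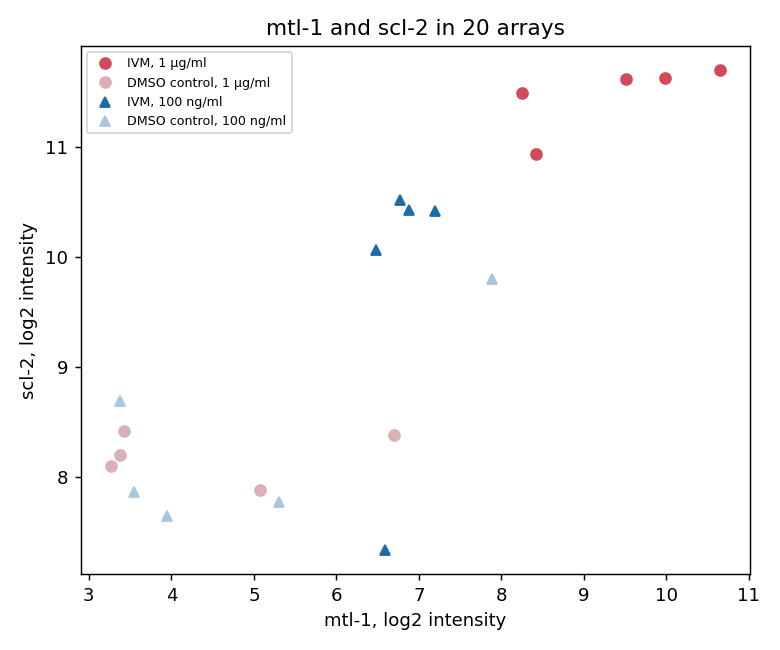
Log2 intensity of *mtl-1* (horizontal axis) and *scl-2* (vertical axis) on 20 arrays, with circles for the 1 µg/ml experiment, triangles for the 100 ng/ml experiment, dark marks for IVM and pale marks for controls. At 100 ng/ml the IVM array of pair 4 lies alone at 6.59 and 7.34, and its control at 7.89 and 9.80.

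The other members had other neighbours. For *mtl-2* and *ttm-1* only the probeset with the highest mean was used, 194151_x_at and 186316_s_at, here and for r among the members. Since 171887_x_at had r of -0.26 with 186316_s_at, the values of *ttm-1* hold for that probeset and need not hold for the gene. *hmt-1* was followed by *sec-24.1* and *copg-1*, of the COPII and COPI vesicle coats (r = 0.954 each), and by the aminopeptidase gene *pam-1* (0.945), which differed by -0.34, -0.29 and -0.44 at 1 µg/ml. *ttm-1* was followed by the adaptor gene *nck-1* (0.939), *hip-1* (0.932) and F42C5.9 (0.931). For *mtl-2* the values were lower, with C35E7.5 (0.808), F28H6.4 (0.807) and T20D4.19 (0.804), and lower still for *cdr-1*, with T08E11.8 (0.750), *srw-91* (0.749) and Y57A10C.10 (0.744). Among the members, over 20 arrays and then over the differences of 10 pairs, r was -0.59 and -0.27 for *ttm-1* and *mtl-2*, 0.44 and 0.63 for *cdr-1* and *mtl-2*, and -0.30 and -0.70 for *hmt-1* and *mtl-1*. The pair differences of both doses enter the second value. The other pairs of members lay between -0.39 and 0.42 over the arrays and between -0.33 and 0.36 over the differences. No member was among the nearest probesets of another.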

How the data were processed

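RNA of whole DA1316 worms was hybridised to Affymetrix *C. elegans* GeneChips, 5 IVM and 5 control arrays at each of 2 doses, grouped by titles, source names and exposure labels. The authors made the probeset values with RMA and deposited them as log2 intensities, in 1 table of 20 arrays, with versions and build not given in the sources used here. Array medians were 5.58 to 5.71 and values 2.74 to 14.2. Of 20575 probesets, 12 are spike-ins and the other 20563 were tested, whatever their level. The annotation gives 19181 of these 1 gene, 803 several and 579 none.

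IVM minus control was fitted in limma 3.58.1 (R 4.3.3) per dose, blocked on the replicate number, with Benjamini-Hochberg adjustment over all probesets tested. The methods split each suspension between drug and control plates, and that equal replicate numbers mark 1 suspension was inferred. After group means were taken off, arrays of the same number had r of 0.499 to 0.884 and 0.553 to 0.883. Replicate 3 at 1 µg/ml (0.499 with its own control, 0.673 with another) and replicate 5 at 100 ng/ml (0.729 and 0.815) were nearer to a control of another number. Controls were compared over 10 arrays, and doses over 20 arrays with 10 blocks. The study assigned significance by Rank Products, which was not run here. The number of arrays limits the precision. Python 3.11.15 with pandas 2.3.3 handled the tables.

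The members and lists were chosen with earlier results of these data known. Named in the text were all members, list genes with an adjusted p under 0.05 (1 probeset a gene, with the highest mean) and, by r, 5 probesets for *mtl-1* and 3 for each other member. Of the list, *cdr-5* and *nhr-33* were not matched by symbol, and *cdr-7*, *numr-1*, *chca-1*, *hif-1* and *mek-1* had no probeset of their own. Of the marker lists fixed (26 genes), adult cuticle and yolk, body wall muscle, neurons, germline, sperm and hypodermis had 0 genes past the test at either dose.

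On simulated data with 200 changed probesets of 20563, log2 changes of 0.5, 1 and 2 were called in 40%, 90% and 100% at 1 µg/ml. At 100 ng/ml they were called in 48%, 94% and 98%, with 7.30% and 6.63% of the called unchanged at the 2 doses. The simulated noise was normal and independent for each probeset and array, with no effects shared by a suspension and no reversed pair. These shares check the fit and do not give the power in the real arrays. Alternatives were a fit without the block, all 20 arrays in 1 fit, quantile normalization again, median centring, a filter at the median mean level, robust eBayes with a trend, genes as means of their probesets, and each replicate left out in turn.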

Additional observations from a re-analysis of the deposited data

Results flagged for a closer look

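No member and no named gene of the metal list met a rule for a closer look. Dixon's test was run on 52 groups of 5 arrays, in which chance alone marks about 1 in 20, and marked none, *mtl-1* in the controls of the 100 ng/ml experiment included.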

How the results depend on the processing

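Without the replicate block, which the pairing of the worms makes part of the fit, 45 probesets were called higher and 19 lower at 1 µg/ml, against 434 and 281 with it, and of the 48 other metal genes 0 were higher and 0 lower, against 2 and 2. Restricting the fit to probesets above the median mean left 1 metal gene higher, since *smf-3* lies below it, but gave 3 lower, against 2. Averaging all probesets of a gene left 1 lower, *ftn-2*, since *zipt-15* then had an adjusted p of 0.129 in limma. With each replicate left out in turn, 145 to 510 probesets were called higher and 60 to 267 lower at 1 µg/ml, the fewest without replicate 1 (145 and 60) and replicate 4 (151 and 67), and 0 to 2 metal genes were higher and 0 to 2 lower. At 100 ng/ml these fits gave 0 to 201 higher and 0 to 112 lower, and only leaving out replicate 4 gave any call. The difference of *mtl-1* ran from 4.72 to 5.42 at 1 µg/ml and from 1.59 to 2.79 at 100 ng/ml, and that of *hmt-1* from -0.73 to -0.45 at 1 µg/ml. At 100 ng/ml the 3 probesets of *mtl-2* ran from -0.16 to 0.23, -0.13 to 0.27 and -0.21 to 0.07, and *cdr-1* from -0.27 to 0.03. All other settings moved the 18 differences of the members by at most 0.04 on the log2 scale. The low intensity of *mtl-1* in controls limits how exactly its fold can be given. The cause of these shifts was not tested.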
